A study of Homo sapiens with 18 samples.

Results

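HEK-293E, an established line derived from human embryonic kidney, was starved of serum and then fed in the presence of Torin1, and RNA from cells fed for 4 h was compared with RNA from cells kept starved. The comparison used 6 of the 18 libraries in the series, 3 of 4 h fed cells with Torin1 and 3 of starved cells with Torin1. Genes were taken without selection on their response: every gene that passed a filter on low counts was tested, which gave 16414 of the 60623 genes in the table. Cells of all groups had grown in DMEM with 10% fetal bovine serum (FBS) and spent a night in DMEM with 0.1% FBS, and feeding put them back into the growth medium. Torin1, an inhibitor of the kinase mTOR, was present in both groups, so the comparison measured feeding in the presence of the inhibitor and not the effect of the inhibitor. The sources used here state neither its dose nor how long it was applied, and no readout of mTOR activity was analysed here. Cells fed for 1 h with Torin1, and 4 h fed and starved cells without it, with 3 libraries each, were used to place the values in time and beside feeding without the inhibitor.

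mTOR senses amino acids and growth factors and drives ribosome production, translation and lipid synthesis, and Torin1 blocks the catalytic site of both complexes that the kinase forms. Growth medium brings more than nutrients. Its serum carries lysophospholipids that act through the actin cytoskeleton on the transcription factor SRF, bone morphogenetic proteins (BMPs) that act through SMAD factors on the ID genes, and zinc, iron-loaded transferrin and lipoproteins, each with its own set of responding genes.

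Library totals in the series ranged from 10510689 to 13690035 counts, and 29880 genes had a count in a library. Levels are given as counts per 1e6 reads (CPM) after TMM scaling, and the 3 counts that a reading of 0 still permits correspond to 0.219 to 0.285 CPM by library, for counting error only. All 9 markers of HEK-293 cells were detected in each of the 6 libraries compared, 1 of them called lower in fed cells (the kidney progenitor factor EYA1), with a summed level of 1476 to 1601 CPM in 4 h fed cells and 1289 to 1542 CPM in starved cells. Replicate 2 of the 4 h fed cells stood apart in 7 fibroblast markers, which summed to 37.1 CPM there, against 17.0 and 16.3 CPM in the other 4 h fed libraries and 15.6 to 18.03 CPM in the starved ones. COL1A2 and COL3A1, chains of fibrillar collagens, were at 5.56 and 5.49 CPM in that library and at or below 1.04 CPM in the other 5, and the part of these transcripts in the results was not tested. The marker lists of immune cells (2.62 to 4.19 CPM in 4 h fed and 3.76 to 5.88 CPM in starved libraries), endothelium (1.64 to 2.13 CPM in 4 h fed and 0.481 to 0.766 CPM in starved libraries) and surface epithelium (10.1 to 12.8 CPM in 4 h fed and 12.2 to 14.8 CPM in starved libraries) were low, and none of their tested members was called. Of the 7 endothelial markers, 3 were at 0 in each fed library and 4 or 5 in each starved one, ERG in all 6, and the part of this difference in the results was not tested. In bulk RNA, fewer cells of a kind and less RNA per cell cannot be told apart.

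Feeding for 4 h under Torin1 raised the metallothioneins MT1X and MT2A, the 4 ID genes and the inhibitory SMADs SMAD6 and SMAD7 of the BMP pathway, and 8 of 15 SRF, YAP and actin genes. It lowered the zinc importer SLC39A10, the transferrin receptor TFRC, 11 of 34 genes of amino acid transporter families, the cyclins CCND1 and CCND2, and MYC. edgeR's quasi-likelihood test called 136 genes higher (0.829% of those tested) and 160 lower (0.975%) at an adjusted p under 0.05, together 1.8% of genes. Most changes were small: 28 of the higher and 7 of the lower genes reached 2-fold. The log2 fold change had a median of 0.63 over higher genes, −0.54 over lower genes and −0.0032 over all genes tested. The 3 fed and 3 starved libraries did not overlap in 135 of the 136 higher genes, the exception being ARPC4, a subunit of the actin-nucleating Arp2/3 complex, and in 160 of the 160 lower ones. Over all genes tested, 10.6% and 10.7% were without overlap in these directions. Each fit without 1 of the 6 libraries called 134 to 189 genes. The lowest count came without replicate 2 of the 4 h fed cells, the library with fibroblast transcripts, and 128 of those 134 genes were among the 296.

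**Figure D1:**
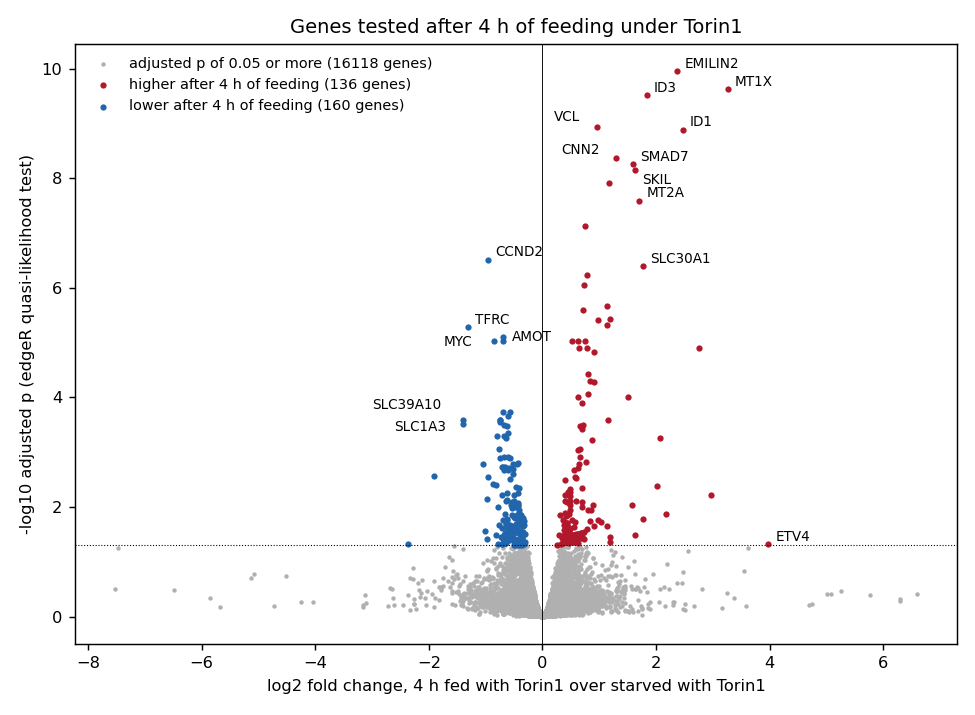
Each point is 1 of the 16414 genes tested, with the log2 fold change of 4 h fed over starved cells with Torin1 on the x axis and −log10 of the adjusted p of edgeR's quasi-likelihood test on the y axis. The 136 higher genes reach further from 0 than the 160 lower genes, with EMILIN2, MT1X, ID3, VCL and ID1 at the smallest adjusted p.

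Zinc genes moved in both directions. Metallothioneins, small cysteine-rich proteins that bind zinc and copper, rose in all 3 members that passed the filter, and 8 of the 11 listed members were too low to test. MT1X (ENSG00000187193) was at 11.2, 14.3 and 12.4 CPM in 4 h fed cells, against 1.11, 1.12 and 1.75 CPM in starved cells. The fed libraries were all above the starved ones, and MT1X rose 9.57-fold (log2 fold change 3.26 ± 0.24, SE; edgeR adjusted p = 2.39e-10). MT2A was at 19.9, 24.8 and 22.6 CPM in fed cells and 6.47, 5.61 and 8.69 CPM in starved cells, a rise of 3.25-fold (edgeR adjusted p = 2.61e-08), again without overlap. MT1F averaged 6.84 ± 0.793 CPM in fed and 1.02 ± 0.409 CPM in starved cells (SD, n = 3 each) and rose 6.74-fold. Its starved libraries were at 0.557, 1.20 and 1.32 CPM, so it passed the filter through the fed libraries. Its place among the 3 tested members is therefore not independent of its rise. The MT1 genes are near copies of each other, so the split of reads among them is uncertain.

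Metallothionein promoters are known for metal response elements, short sequences bound by the zinc-sensing factor MTF1. The elements were searched as TGCACNC or TGCGCNC on both strands, where N is any base. Each window was the 250 bases before a start, and the 50 bases after it were left out. The stretches that hold them in MT1X and MT2A are shown because metallothioneins had some of the largest changes. Sequences are from RefSeq, build GRCh38.p14, 5′ to 3′ on the plus strand, with the elements in capitals.
MT1X, chr16:56682295-56682424: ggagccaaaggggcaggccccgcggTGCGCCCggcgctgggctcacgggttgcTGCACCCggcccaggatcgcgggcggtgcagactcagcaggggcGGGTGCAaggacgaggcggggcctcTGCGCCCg
MT2A, chr16:56608409-56608538: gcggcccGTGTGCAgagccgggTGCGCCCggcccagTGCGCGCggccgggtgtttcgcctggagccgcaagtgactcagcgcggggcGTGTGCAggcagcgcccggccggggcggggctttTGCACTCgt
The MT1X window held 4 elements and the MT2A window 7, of which 5 lie in the stretch shown. Of the metallothioneins too low to test, MT1H held 8 elements, and MT1B and MT4 held 3 each. At least 1 element was present in 43% of the 107 of 136 higher genes with a promoter in the table, in 50.8% of the 118 of 160 lower genes and in 40.2% of the 11718 tested genes, and 4 or more in 1.87%, 0% and 0.632%. The 1.87% is 2 genes, MT1X and MT2A themselves, which were picked for their changes, so it is not a result about the higher genes. A match to these letters is a description of the sequence and not a binding site.

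SLC30A1, the exporter that moves zinc out of the cytosol and a textbook target of MTF1, was at 39.0, 37.0 and 39.2 CPM in 4 h fed and 12.7, 11.9 and 9.12 CPM in starved cells. It rose 3.40-fold (log2 fold change 1.76 ± 0.16; edgeR adjusted p = 4.02e-07), and its promoter window held 1 element. The zinc importer SLC39A10 (ZIP10) went the other way, with 72.5, 60.8 and 59.4 CPM in fed cells against 174, 195 and 139.8 CPM in starved cells, no overlap and a level 62.1% lower (log2 fold change -1.40 ± 0.17; edgeR adjusted p = 2.55e-04). SLC39A8 (ZIP8), an importer of zinc, iron and manganese, averaged 33.5 ± 3.39 CPM in fed and 43.9 ± 4.51 CPM in starved cells and was just past the threshold (edgeR adjusted p = 0.0495), which 5 of the 6 fits that left out a library did not reach. The promoter windows of SLC39A10 held 0 elements, and those of SLC39A8 held 0 or 1. Besides these and SLC30A1, 18 of 21 tested zinc transport genes were not called, and the median log2 fold change of the list was −0.04.

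**Figure D2:**
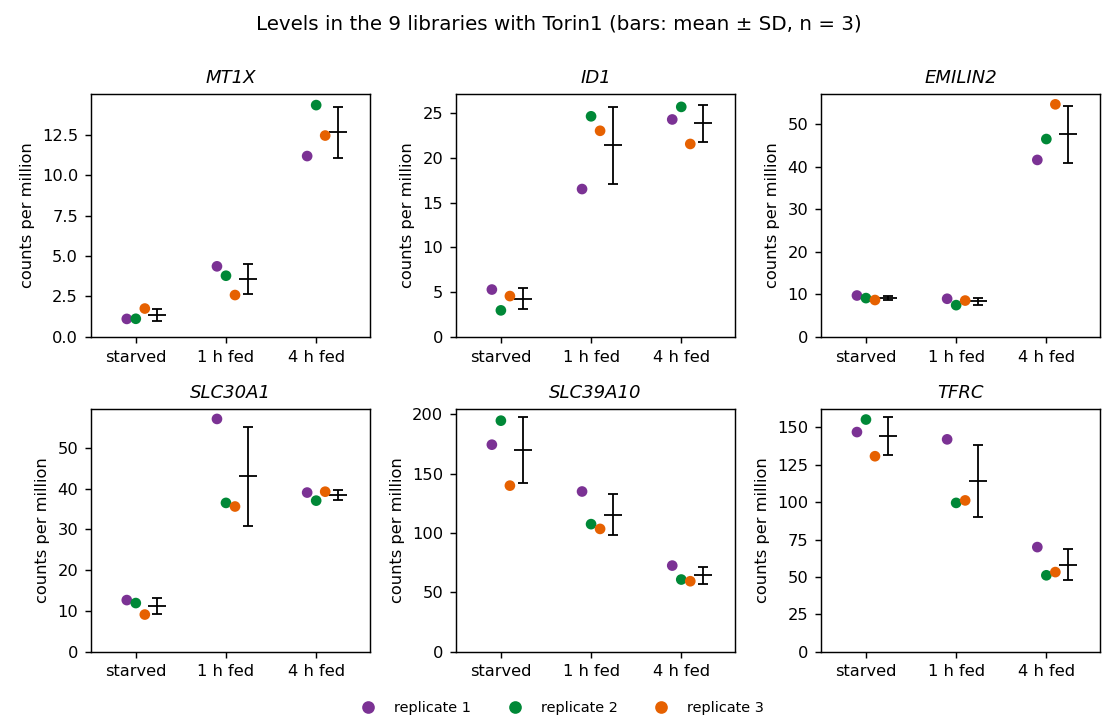
CPM of 6 genes in each of the 9 libraries with Torin1, by feeding time, with the mean and SD of each group of 3 beside the points. MT1X climbs at both times, ID1 and SLC30A1 are already high at 1 h, EMILIN2 is high at 4 h and not at 1 h, and SLC39A10 and TFRC are lowest at 4 h.

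The transferrin receptor TFRC, which takes up iron-loaded transferrin and whose mRNA is degraded when iron is plentiful, fell to 70.0, 51.1 and 53.3 CPM in 4 h fed cells, against 147, 155 and 131 CPM in starved cells. Each fed library was below each starved one, and the level was 59.7% lower (log2 fold change -1.31 ± 0.13; edgeR adjusted p = 5.28e-06). LRP1, a large endocytic receptor that takes up heme with hemopexin, was the only other called gene of the 20 iron genes tested (log2 fold change -0.49; edgeR adjusted p = 0.0445), and it lost the call in 5 of the 6 fits that left out a library. FTH1, the ferritin heavy chain, which is controlled by iron at translation, averaged 616 ± 32.7 CPM in fed and 603 ± 61.9 CPM in starved cells, and the groups overlapped. The list median was 0.04 on the log2 scale.

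The BMP list held the largest share of called genes among lists of more than 20 tested genes, with 9 of 21 higher and 1 lower and a list median of 0.62 on the log2 scale. ID proteins bind basic helix-loop-helix factors and keep them off DNA, and all 4 ID genes rose. ID1 was at 24.3, 25.7 and 21.5 CPM in fed and 5.29, 2.97 and 4.56 CPM in starved cells, a 5.54-fold rise with no overlap (log2 fold change 2.47 ± 0.20; edgeR adjusted p = 1.31e-09). ID3 was at 88.6, 79.6 and 89.0 CPM in fed and 31.7, 18.7 and 21.2 CPM in starved cells and rose 3.57-fold (edgeR adjusted p = 3.06e-10). ID2 rose by 0.63 on the log2 scale, with a mean of 126 CPM in fed and 81.3 CPM in starved cells, and ID4 by 0.66, with 93.1 CPM in fed and 58.7 CPM in starved cells. The intracellular inhibitors of the pathway rose with them. SMAD7, which blocks receptor signalling of both BMP and TGF-beta, averaged 39.3 ± 2.68 CPM in fed and 12.9 ± 2.86 CPM in starved cells (SD, n = 3 each; 3.03-fold, edgeR adjusted p = 5.53e-09). SMAD6, the inhibitor more selective for BMP, was at 43.4, 38.6 and 41.8 CPM in fed and 18.2, 18.9 and 17.5 CPM in starved cells (2.27-fold, edgeR adjusted p = 3.75e-06). SMAD9, a BMP-activated SMAD, the homeobox factor MSX2 and the repressor HEY1 were the other higher genes, at log2 fold changes of 0.91, 1.13 and 0.62. The 1 lower gene was a ligand, BMP7 (-0.37 on the log2 scale), and BMP6, which lies outside the list and was chosen after its value was seen, was also lower (-0.64). Each fit without 1 library called 9 higher genes in this list, and BMP7 kept its call in 1 of those 6 fits, the one without replicate 3 of the fed cells.

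Of the 12 tested TGF-beta targets 3 rose and 0 fell, while the list median was −0.07. SKIL (SnoN), a repressor that binds SMADs, was at 52.4, 50.4 and 39.9 CPM in fed and 15.3, 13.4 and 17.6 CPM in starved cells (3.08-fold, edgeR adjusted p = 7.07e-09). KLF10, a zinc finger factor first found as an early TGF-beta gene, averaged 78.9 ± 7.601 CPM in fed and 42.8 ± 2.99 CPM in starved cells, and PMEPA1, which holds back SMAD signalling, averaged 10.8 ± 1.16 and 6.54 ± 1.02 CPM in fed and in starved cells. SKIL was called in each fit that left out a library, whereas KLF10 lost the call in 2 of 6 and PMEPA1 in 6 of 6. Of the NF-kappa-B targets, 2 of 12 rose: RELB, an NF-kappa-B subunit (9.61, 6.25 and 9.46 CPM in fed and 2.92, 2.89 and 3.07 CPM in starved cells; edgeR adjusted p = 9.89e-05), and the inhibitor NFKBIA (0.55 on the log2 scale), which lost the call in 5 of 6 such fits.

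Genes of the actin cytoskeleton made the second group. Of the 15 tested genes listed as targets of SRF and YAP or as actin genes, 8 rose and 0 fell (list median 0.64 on the log2 scale), and fits without 1 library called 7 or 8 higher and 0 lower, with 8 and 0 when replicate 2 of the 4 h fed cells was left out. VCL, vinculin of focal adhesions, was at 207, 211 and 223 CPM in fed and 102, 117 and 112 CPM in starved cells. The fed libraries lay well above the starved ones, at 1.94-fold (log2 fold change 0.96 ± 0.08; edgeR adjusted p = 1.14e-09). CNN2, the actin-binding calponin 2, was at 53.5, 54.6 and 54.5 CPM in fed and 23.7, 20.8 and 21.8 CPM in starved cells (2.45-fold; edgeR adjusted p = 4.20e-09). FLNA, which crosslinks actin filaments, averaged 748 ± 91.5 CPM in fed and 436 ± 44.9 CPM in starved cells, and ACTB and ACTG1, the cytoplasmic actins, rose by 0.72 and 0.53 on the log2 scale. These actins are close in coding sequence, so reads between them are uncertain. TPM1 and TPM4, tropomyosins that wrap the filament, rose by 0.70 and 0.64, and CCN2, a secreted YAP target, by 1.19. SRF itself was higher by 0.45 (edgeR adjusted p = 0.00602) and was the 1 called gene of the 29 immediate early genes, a list with a median of 0.32.

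SRF binds the CArG box, an A and T rich stretch between CC and GG. This motif was found, on either strand, in the promoter windows of 9 of the 107 higher genes matched to a promoter (8.41%; 29 had no entry), in 0 of the 118 lower genes and in 1.4% of the 11718 tested genes, and a match is a description and not a site. The matching stretches of 4 genes are shown, since CNN2, ACTG1 and FLNA are in the actin list and SRF encodes the factor that binds the box. A part of SRF in the rise of the list was not tested. The box is in capitals, 5′ to 3′ on the strand of the gene, from RefSeq (GRCh38.p14).
CNN2, chr19:1026499-1026548, plus strand: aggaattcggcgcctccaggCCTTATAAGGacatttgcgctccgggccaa
ACTG1, chr17:81512864-81512913, minus strand: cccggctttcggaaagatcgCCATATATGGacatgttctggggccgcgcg
FLNA, chrX:154374699-154374748, minus strand: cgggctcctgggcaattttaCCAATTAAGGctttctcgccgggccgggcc
SRF, chr6:43171219-43171268, plus strand: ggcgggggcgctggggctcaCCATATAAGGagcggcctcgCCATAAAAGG
The SRF stretch holds 2 boxes. The other 5 genes with a match were FHL2, LPP, MYO1E, NR2F1 and TPM4, of which FHL2 and LPP encode LIM proteins of focal adhesions and MYO1E a motor of actin. TPM4 is also in the actin list. VCL, ACTB, TPM1 and CCN2, the remaining higher genes of that list, were not among the 9 with a match. Among cytoskeletal genes outside the list, chosen after their values were seen, PDLIM7 and ZYX, LIM proteins on actin, were higher by 1.17 and 0.79 on the log2 scale, WDR1 and DSTN, which disassemble actin filaments, by 0.76 and 0.38, FERMT2 (kindlin-2) by 0.74 and MYH9, the heavy chain of non-muscle myosin, by 0.40.

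**Figure D3:**
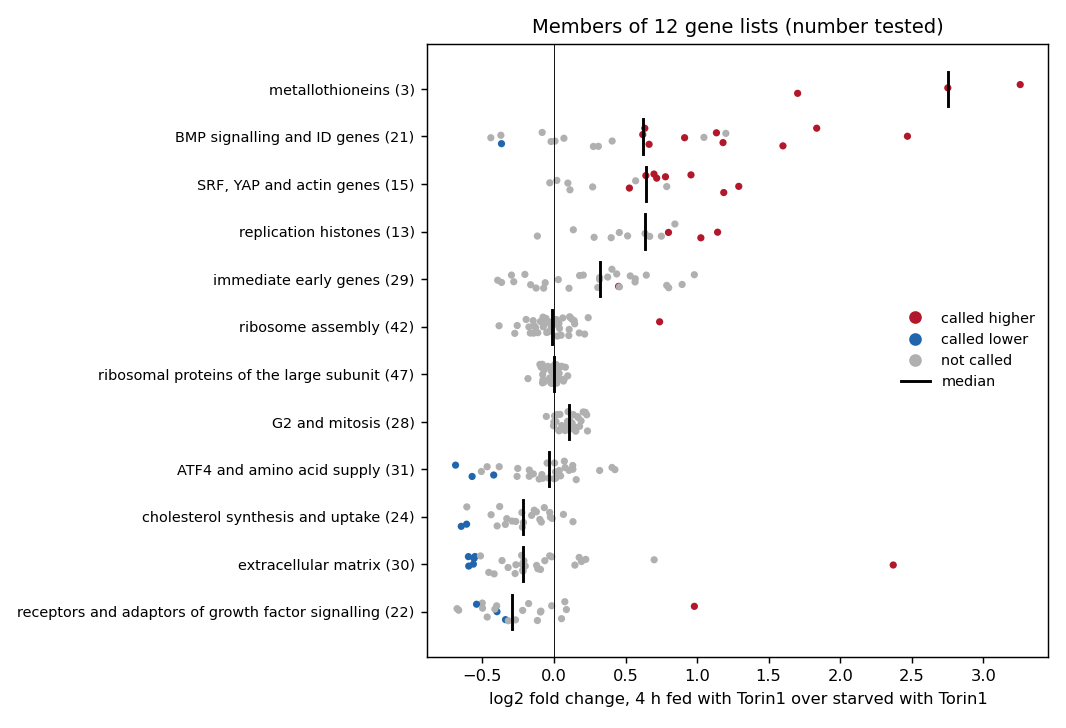
Log2 fold changes of the tested members of 12 gene lists, 4 h fed over starved cells with Torin1, with called genes in red (higher) and blue (lower) and the median of each list as a bar. The medians of the BMP, actin and histone lists lie near 0.62 to 0.64, that of large-subunit ribosomal proteins near 0, and those of cholesterol and extracellular matrix genes at −0.22.

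EMILIN2, an extracellular matrix glycoprotein, had the smallest p of all genes tested, with 41.6, 46.6 and 54.7 CPM in 4 h fed and 9.75, 9.14 and 8.69 CPM in starved cells (5.17-fold; log2 fold change 2.37 ± 0.17; edgeR adjusted p = 1.11e-10). It was the 1 higher gene among 30 tested genes of the extracellular matrix, of which 5 were lower and 24 had a negative fold change. COL4A2, a chain of basement membrane collagen, was at 83.8, 86.9 and 108 CPM in fed and 138, 144 and 140.1 CPM in starved cells (edgeR adjusted p = 2.20e-04). LAMA5, a laminin chain, was at 37.7, 51.4 and 54.5 CPM in fed and 67.2, 69.0 and 74.4 CPM in starved cells (edgeR adjusted p = 0.00915), and LAMA4, COL18A1 and HSPG2 (perlecan) had log2 fold changes of −0.56 to −0.60. These are components of basement membranes. Fits without 1 library called 1 to 4 lower matrix genes, 2 of them without replicate 2 of the 4 h fed cells, the library with fibroblast transcripts, and 1 higher in every such fit.

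MYC and the cyclins CCND1 and CCND2 fell. MYC, the growth-promoting transcription factor, was at 142, 123 and 129 CPM in 4 h fed and 258, 226 and 227 CPM in starved cells, 44.6% lower without overlap (log2 fold change -0.85 ± 0.11; edgeR adjusted p = 9.30e-06). CCND2, the D-type cyclin that moves cells out of G1, was at 19.4, 21.7 and 23.3 CPM in fed and 46.1, 40.9 and 38.2 CPM in starved cells (48.6% lower; edgeR adjusted p = 3.11e-07). CCND1 averaged 15.5 ± 0.669 CPM in fed and 23.4 ± 1.92 CPM in starved cells (edgeR adjusted p = 0.00195). The third D-type cyclin, CCND3, was not called, at 33.3 ± 0.695 CPM in fed and 31.1 ± 4.96 CPM in starved cells (edgeR adjusted p = 0.794). The inhibitor CDKN2C (p18) was higher by 0.43, and CDKN1B (p27) was not called, at 61.7 ± 3.83 CPM in fed and 54.4 ± 1.32 CPM in starved cells (edgeR adjusted p = 0.445). Of 15 tested ERK feedback genes, 2 were higher, 1 was lower and 12 were not called, with a list median of 0.15. The 2 higher ones, the ERK-induced factors ETV5 and ETV4, rose at very low levels. ETV5 was at 2.85, 2.21 and 1.89 CPM in fed and 0.975, 0.240 and 0.439 CPM in starved cells, a call lost only without replicate 2 of the starved cells among the fits without 1 library. ETV4 was at 0.570, 0.533 and 0.582 CPM in fed and 0.0696, 0 and 0 CPM in starved cells, which lies below the level of 3 counts, so no fold is stated. Its call was lost in each of the 6 fits without 1 library.

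Receptors for growth factors were lower in 3 of 22 tested genes and higher in 1, with a list median of −0.29. INSR, the insulin receptor, averaged 37.7 ± 3.59 CPM in fed and 55.0 ± 6.83 CPM in starved cells (edgeR adjusted p = 0.00911), IGF1R averaged 99.9 ± 8.65 and 132 ± 12.2 CPM in fed and starved cells, and MET fell by 0.34 on the log2 scale. FGFR3 was higher by 0.98. Without replicate 2 of the 4 h fed cells none of these 4 was called. Other libraries mattered too: INSR and IGF1R each lost their calls in 4 of the 6 fits without 1 library. Without replicate 1 of the 4 h fed cells, 0 genes of the list were called lower and 1 higher. AMOT, a scaffold that retains YAP outside the nucleus, was at 426, 436 and 442 CPM in fed and 674, 761 and 670.3 CPM in starved cells (38.1% lower; edgeR adjusted p = 7.93e-06). LRP2 (megalin), an endocytic receptor of kidney tubules, was at 14.03, 14.8 and 14.6 CPM in fed and 25.2, 36.5 and 27.8 CPM in starved cells (edgeR adjusted p = 0.00161). Notch genes split, with the targets HES1 (0.57) and HEY1 (0.62) higher and the ligand DLL1 (-0.53) and the receptor NOTCH3 (-0.63) lower, of 10 tested genes in that list. In a family chosen after its values were seen, 4 of 9 Notch receptors and ligands were lower, and 0 were called without replicate 2 of the 4 h fed cells.

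Families of amino acid transporters, taken by gene name, were chosen after their values were seen. The names also cover carriers of other substrates, such as the creatine carrier SLC6A8, which is among the lower genes. Of 34 tested genes with the names SLC1, SLC3, SLC6, SLC7, SLC36, SLC38 and SLC43, 11 were lower and 0 higher (32.4%, where 0.975% of all genes were lower), with a median of −0.16. SLC1A3, a glutamate and aspartate transporter, was at 7.48, 8.31 and 7.28 CPM in fed and 18.8, 21.8 and 20.4 CPM in starved cells (62.1% lower; edgeR adjusted p = 3.01e-04). SLC1A1, another glutamate carrier, was at 5.91, 5.33 and 4.22 CPM in fed and 7.59, 11.2 and 11.9 CPM in starved cells, and SLC1A5, the main glutamine importer, was at 161, 152 and 181 CPM in fed and 258, 234 and 243 CPM in starved cells (edgeR adjusted p = 0.00305). SLC1A1 lost its call in 3 of the 6 fits without 1 library, whereas SLC1A3 and SLC1A5 kept theirs in each. SLC38A1 and SLC38A2, carriers of small neutral amino acids, were lower, with log2 fold changes of -0.41 and -0.42. Fits without 1 library called 5 to 10 lower genes in this family, 7 of them without replicate 2 of the 4 h fed cells. Of 31 tested genes of ATF4, the factor of the amino acid response, 3 were lower, SLC1A5, SLC38A2 and the secreted hormone STC2 (31.0, 34.6 and 31.7 CPM in fed and 52.8, 51.9 and 52.0 CPM in starved cells; edgeR adjusted p = 9.42e-06). ASNS, asparagine synthetase and a defining ATF4 target, overlapped between the groups at 49.0 ± 2.30 CPM in fed and 45.6 ± 2.95 CPM in starved cells.

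Of 24 tested genes of cholesterol synthesis and uptake, 22 had a negative log2 fold change and 2 were called, the squalene epoxidase SQLE (175 ± 20.7 CPM in fed and 267 ± 6.02 CPM in starved cells; edgeR adjusted p = 4.44e-04) and the demethylating oxidase MSMO1 (36.4 ± 9.91 and 57.1 ± 7.45 CPM in fed and starved cells). MSMO1 lost its call in 4 of the 6 fits without 1 library. The list median was −0.22, and HMGCS1, an early enzyme of the pathway, was not called at -0.44 (edgeR adjusted p = 0.137). With the replicate block 4 of the 24 genes were called lower, HMGCS1 among them. With only the compared groups and the block, a fit chosen after seeing the data, 11 of the 24 and 5 of 13 fatty acid genes were called lower, among 1584 genes in all. ELOVL6, a fatty acid elongase, was the 1 called gene (-0.76) of 13 in fatty acid synthesis, all of which had negative values. TXNIP and ARRDC4, arrestin-domain proteins that restrain glucose uptake, were both lower, TXNIP at 62.6, 60.5 and 58.7 CPM in fed and 99.7, 90.6 and 75.4 CPM in starved cells and ARRDC4 at 27.6, 26.7 and 25.5 CPM in fed and 48.5, 41.8 and 37.4 CPM in starved cells. ARRDC4 held its call in each fit that left out a library and TXNIP lost it in 5 of 6. DEPP1, a FOXO-induced gene, averaged 3.85 ± 0.432 CPM in fed and 7.76 ± 2.77 CPM in starved cells and lost its call in 4 of 6.

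Replication-dependent histones rose in 3 of 13 tested genes, with 12 of 13 positive and a median of 0.64. H2AC6 was at 32.7, 28.0 and 30.8 CPM in fed and 15.9, 11.6 and 13.9 CPM in starved cells (2.21-fold; edgeR adjusted p = 2.19e-06), and H2BC5 and H4C14 were higher by 0.80 and 1.03. H4C15, a histone H4 gene outside the list, was at 40.3, 46.4 and 56.2 CPM in fed and 13.9, 15.6 and 12.5 CPM in starved cells (edgeR adjusted p = 0.0167) and lost its call in 5 of 6 fits without a library. Histone genes are near copies of each other, which leaves their separate counts uncertain, and their mRNAs lack poly(A) tails. Fits without 1 library called 1 to 3 of the listed histones, 2 of them without replicate 2 of the 4 h fed cells. HOX genes, a family chosen after its values were seen, were higher in 7 of 37 tested members (18.9%, where 0.829% of all genes were higher) and lower in 0, from 0.41 for HOXA10 to 0.77 for HOXB2, and fits without 1 library called 2 to 5, with 3 when replicate 2 of the 4 h fed cells was left out. GATA2, a haematopoietic and neural factor, was at 32.7, 31.7 and 32.9 CPM in fed and 22.7, 17.9 and 20.9 CPM in starved cells, and its antisense transcript GATA2-AS1 was higher by 0.59. Strand use in counting is not given in the sources used here, so reads of GATA2 and GATA2-AS1 cannot be told apart, and the same holds for the other 4 antisense genes called.

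Lists tied to mTOR, protein synthesis and growth are read beside the 1.8% of all genes that were called, and a count near that share is not a result about a list. edgeR's test called 0 of 198 genes in 8 of them, which were the 47 large-subunit and 32 small-subunit ribosomal proteins, 14 translation factors with TOP motifs, 20 aminoacyl-tRNA synthetases, 28 genes of G2 and mitosis, 23 glycolytic genes, 21 autophagy genes and 13 mitochondrially encoded genes. Of these, 10 had an unadjusted p under 0.05, DESeq2 called 1 and limma-voom called 0, and the list medians lay between −0.04 and 0.10. Over all 16414 genes tested, 2150 had an unadjusted p under 0.05 in edgeR's test, DESeq2 called 471 and limma-voom 417. Of 42 ribosome assembly genes 1 was called, the RNA polymerase I factor UBTF (254 ± 11.1 CPM in fed and 152 ± 8.59 CPM in starved cells; edgeR adjusted p = 9.04e-07). Of 23 mTOR pathway genes 1 was called, the arginine sensor homolog CASTOR2 (log2 fold change -0.38), and 1 of 27 DNA replication genes, GINS1 (-0.50). In 10 further lists of the unfolded protein response, NRF2, hypoxia, p53, interferon, Wnt, LXR, the BCL2 family, the clock and snoRNA hosts, edgeR called 0 of 146 genes, 26 had an unadjusted p under 0.05, DESeq2 called 6 and limma-voom 3. Some of these counts of 0 depend on the fit. The fit of only the compared groups with the replicate block was chosen after seeing the data. It called 6 of 28 genes of G2 and mitosis higher and 7 of 20 of the unfolded protein response lower. That fit called 1584 genes in all, 699 of them higher, so the 1.8% above is not its background. The heat shock (HSPA4L), lysosome (GLA) and selenoprotein (SELENOI) lists had 1 lower gene each.

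After 1 h of feeding, the same test against the same starved libraries called 45 genes higher and 21 lower (0.274% and 0.128% of genes, together 0.402%). Since both times share those libraries, their values are given side by side. ID1 was at 16.5, 24.6 and 23.0 CPM at 1 h, with log2 fold changes over starved cells of 2.32 at 1 h and 2.47 at 4 h, and SLC30A1 had 1.92 and 1.76. ID1 and SLC30A1 did not differ beyond the threshold between 4 h and 1 h (log2 fold changes 0.15 ± 0.18 and -0.16 ± 0.15, SE). MT1X had 1.43 and 3.26, and ID3 0.83 and 1.84, and both were higher at 4 h than at 1 h (edgeR adjusted p = 1.21e-06 and 1.56e-05). EMILIN2 (8.98, 7.48 and 8.56 CPM at 1 h), VCL, SMAD6 and SMAD7 had log2 fold changes at 1 h of -0.14, -0.03, 0.04 and 0.22 and were not called there (smallest edgeR adjusted p = 0.598). In the direct test of 4 h against 1 h, which called 94 genes higher and 147 lower (0.573% and 0.896%, together 1.47%), these 4 were higher at 4 h by 2.51, 0.99, 1.14 and 1.38 (largest edgeR adjusted p = 1.16e-05).

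The early growth response genes were higher at 1 h than at 4 h. EGR3, an immediate early factor, was at 0.835, 0.401 and 0.351 CPM in starved cells, 10.3, 15.9 and 22.4 CPM at 1 h and 0.997, 0.305 and 0.728 CPM at 4 h. The 4 h libraries overlapped with the starved ones and were below those of 1 h (4 h over 1 h log2 fold change -4.55; edgeR adjusted p = 8.17e-10). EGR1 was at 4.87, 2.24 and 2.54 CPM in starved cells, 19.0, 23.5 and 30.4 CPM at 1 h and 5.77, 3.66 and 5.17 CPM at 4 h, lower at 4 h than at 1 h (edgeR adjusted p = 0.00902). FOS was at 1.46, 1.44 and 1.49 CPM in starved cells, 5.47, 5.38 and 8.63 CPM at 1 h and 4.200, 2.44 and 2.04 CPM at 4 h. The 4 h libraries were all above the starved ones, but its difference between 4 h fed and starved cells was not called (edgeR adjusted p = 0.292). Its difference between 4 h and 1 h was not called either (edgeR adjusted p = 0.0941). TXNIP was lowest at 1 h, at 16.5, 11.3 and 10.4 CPM, and was 2.26 higher on the log2 scale at 4 h than at 1 h (edgeR adjusted p = 6.67e-10) while still below starved cells. DDIT4, an mTOR inhibitor induced by stress, was not called at either time (16.7 ± 4.995 CPM at 4 h and 21.7 ± 4.92 CPM in starved cells). SLC39A10 and TFRC had log2 fold changes of -0.56 and -0.34 at 1 h and -1.40 and -1.31 at 4 h. Neither was called at 1 h (edgeR adjusted p = 0.236 and 0.346). Both were lower at 4 h than at 1 h (edgeR adjusted p = 0.0215 and 3.73e-04).

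**Figure D4:**
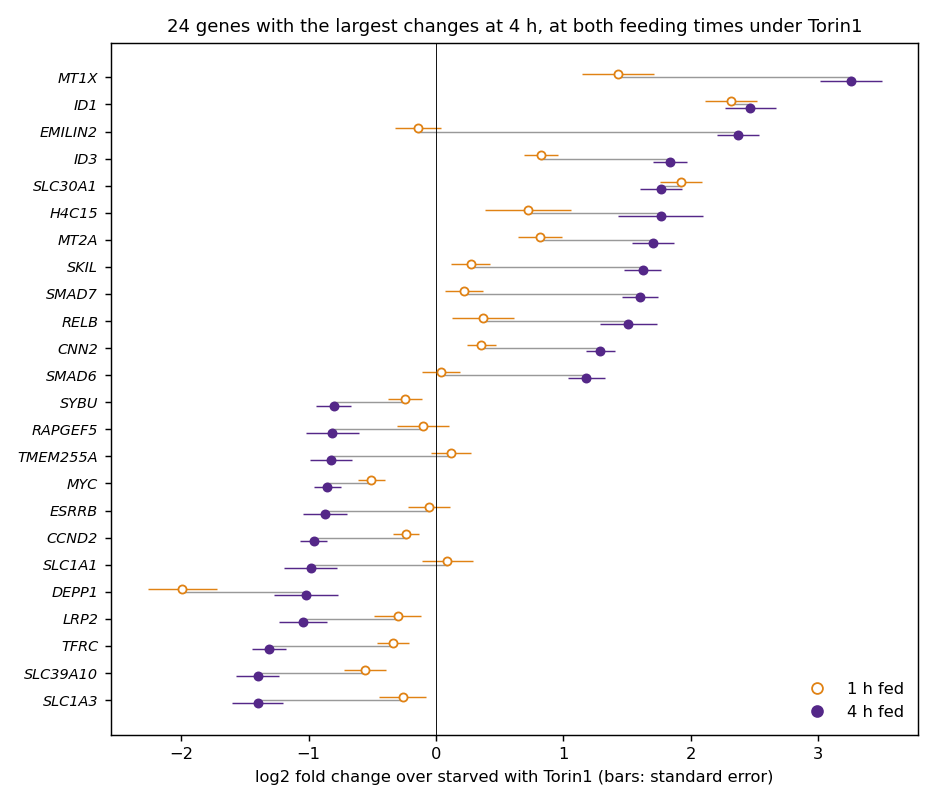
Log2 fold changes with standard errors of the 24 genes with the largest changes at 4 h (12 in each direction, mean of at least 5 CPM), at 1 h (open) and 4 h (filled) of feeding over starved cells with Torin1. ID1 and SLC30A1 have close values at both times, DEPP1 is lower at 1 h than at 4 h, and most other genes are nearer to 0 at 1 h.

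Feeding for 4 h without Torin1 called 3801 genes higher and 3139 lower (23.2% and 19.1% of genes, together 42.3%), and it shares no library with the comparison under Torin1. Of the 136 genes higher under Torin1, 73 (53.7%) were higher without it, 13 were lower and 50 were not called. Of the 160 lower genes, 84 (52.5%) were lower without it, 16 were higher and 60 were not called. The shared genes made up 1.92% of the genes higher without Torin1 and 2.68% of those lower. The difference between the 2 feeding responses was itself tested as an interaction, which called 9.74% of all genes as more positive under Torin1, 16% as more negative and 25.8% in all. ID1, SLC30A1, SLC39A10 and TFRC had log2 fold changes without Torin1 of 2.41, 1.71, -1.66 and -1.40. They differed from those under Torin1 by 0.06 ± 0.31, 0.05 ± 0.21, 0.26 ± 0.24 and 0.09 ± 0.18 (SE), which were not called (smallest edgeR adjusted p = 0.469). This compares fold changes and not levels. Starved cells with and without Torin1 averaged 4.27 and 3.37 CPM for ID1 and 11.2 and 46.7 CPM for SLC30A1. For SLC39A10 the averages were 170 and 284 CPM, and for TFRC 144 and 708 CPM. The part of these levels in the fold changes was not tested.

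Metallothioneins had larger fold changes without Torin1. MT1X was at 76.2, 70.0 and 76.7 CPM in 4 h fed and 0.680, 0.418 and 0.367 CPM in starved cells without Torin1, and the interaction was -3.98 ± 0.45 on the log2 scale (SE; edgeR adjusted p = 4.51e-08). MT2A was at 95.1, 90.3 and 82.6 CPM in 4 h fed and 5.64, 4.76 and 5.603 CPM in starved cells without Torin1, with an interaction of -2.36. CNN2, VCL and SKIL had larger fold changes with Torin1. CNN2 was at 62.9, 56.2 and 54.8 CPM in 4 h fed and 73.4, 63.3 and 55.1 CPM in starved cells without Torin1, and VCL at 118, 132 and 127 CPM in 4 h fed and 114, 127 and 120.4 CPM in starved cells. SKIL was at 26.9, 32.0 and 19.2 CPM in 4 h fed and 27.5, 26.6 and 23.97 CPM in starved cells without Torin1. These groups overlapped without the inhibitor, and the interactions were 1.43, 0.90 and 1.63 (largest edgeR adjusted p = 3.72e-07). In the actin list 8 of 15 genes were higher and 0 lower with Torin1, where 2 were higher and 2 lower without it. Starved levels differed too, since CNN2 averaged 22.1 CPM in starved cells with Torin1 and 63.9 CPM in starved cells without it.

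Genes called in opposite directions included RELB, KLF10, HIVEP1 and GATA2, higher under Torin1, and MYC, AMOT and TMEM109, lower under it. RELB, HIVEP1, GATA2, AMOT and TMEM109 were picked among such genes for the smallest interaction p. RELB was at 4.90, 6.14 and 4.31 CPM in 4 h fed and 15.2, 14.8 and 12.03 CPM in starved cells without Torin1 (interaction 2.96; edgeR adjusted p = 1.23e-08). MYC was at 167, 158 and 184 CPM in 4 h fed and 137, 107 and 133 CPM in starved cells without Torin1, a log2 fold change of 0.43, against -0.85 under Torin1 (interaction edgeR adjusted p = 2.29e-07). HIVEP1, a zinc finger factor that binds kappa-B-like sites, had 0.81 with and -0.84 without Torin1, and TMEM109, a membrane protein of the nucleus and endoplasmic reticulum, -0.48 and 1.12. TMEM109 lost its call under Torin1 in 3 of the 6 fits without 1 library. Replicate 1 of the starved cells without Torin1 also held fibroblast transcripts (COL3A1 at 10.6 CPM, against 0.585 and 0.459 CPM in the other 2 libraries), and without it the interaction called 3858 genes, against 4233 with it.

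**Figure D5:**
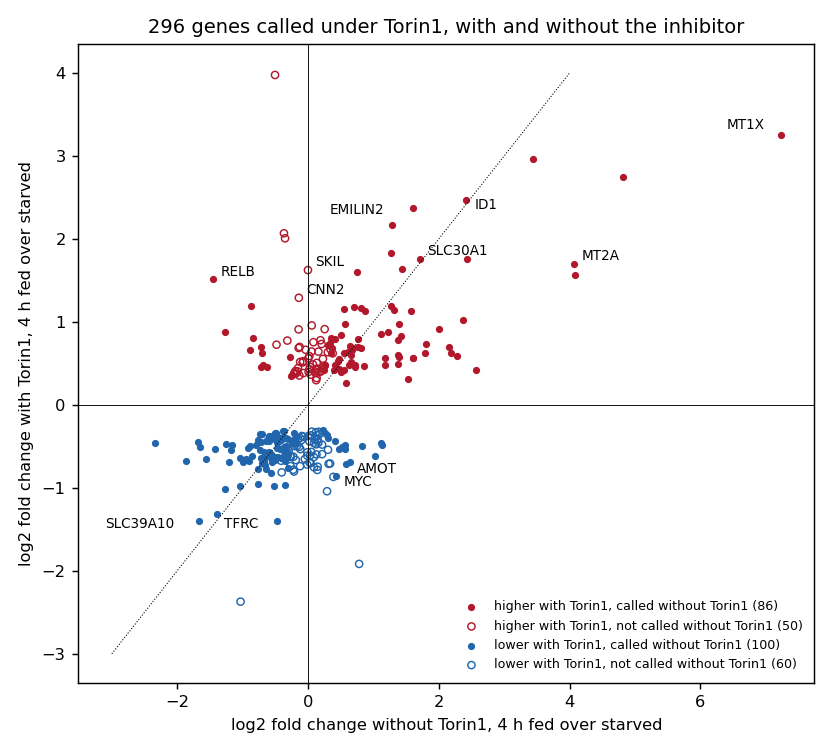
The 296 genes called under Torin1, with the log2 fold change of 4 h fed over starved cells with Torin1 on the y axis and without it on the x axis; the dotted line marks equal values. ID1, SLC30A1, SLC39A10 and TFRC lie near the line, the metallothioneins lie right of it, and RELB, SKIL, MYC and AMOT lie in or beside the quadrants of opposite sign.

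The use of isoforms within genes was tested with edgeR's diffSpliceDGE on 48663 isoforms of 10700 genes, which called 58 genes (0.542%), among them AGAP3, PTPA, PMAIP1 and U2SURP. The same test also called genes without change in simulated counts, so its calls are read beside limma's diffSplice on voom values, which was added after the data were seen. That test called AGAP3 (limma adjusted p = 0.0112) and did not call PTPA (0.524), PMAIP1 (0.223) or U2SURP (0.483). It called 39 genes, 13 of them among the 58, and the genes described are from those 13, chosen after their values were seen. PMEPA1-205, an isoform of the SMAD regulator PMEPA1, held 0% of the gene's counts in each of the 3 fed libraries, against 66.4%, 13.4% and 69.1% in starved cells (limma adjusted p = 0.00201). KIF14-202, of a mitotic kinesin, held 45.7%, 62.6% and 51.5% in fed cells and 34.4%, 8.17% and 11.6% in starved cells (limma adjusted p = 0.0485). MITF-218, of the melanocyte and lysosome factor MITF, held 90.3%, 98.6% and 100% in fed cells and 0% in each starved library. Shares at 0 or 100% rest on estimated isoform counts, and the part of the estimation in them was not tested.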

How the data were processed

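Gene and isoform tables for 18 libraries of HEK-293E cells were used as deposited: the authors gave expected counts, estimated per gene and per transcript and not normalized, which were rounded to whole numbers here. STAR, RSEM and DESeq2 are named per the submitters' processing notes, with no version. The labels name a C. elegans build for the alignment, whereas the identifiers are human Ensembl genes. The sources used here give no human build, annotation or use of strand.

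Counts were tested with edgeR 4.0.16 (R 4.3.3, limma 3.58.1): filterByExpr with a minimum count of 10 kept 16414 genes, scaling was by TMM, and robust quasi-likelihood fits had 6 group means over all 18 libraries, with 12 residual degrees of freedom. Adjusted p is by Benjamini-Hochberg over 16414 genes with a threshold of 0.05, and a standard error is the absolute log2 fold change over the square root of F. CPM values carry their depth, 10510689 to 13690035 counts per library. Isoforms were tested with edgeR's diffSpliceDGE. The scripts were tested on simulated data.

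Named genes were the 12 largest called changes in each direction at a mean of at least 5 CPM without overlap, 5 markers, the 2 smallest p per list and direction, 13 preset genes, 5 genes of opposite direction without Torin1 and 5 isoform genes, 1 of which is not reported here. Other called genes are named as members of lists or were chosen after their values were seen. The lists and markers were chosen with earlier results of these data known. Promoter sequences are from RefSeq (GRCh38.p14), searched with Python 3.11.15.

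Replicates share numbers across groups. The deviations of same-numbered 4 h fed and starved libraries with Torin1 correlated at 0.224, 0.269 and 0.108. Different-numbered libraries of these groups correlated at -0.245 to -0.0106. The deviations are from group means, so these values are not independent of each other. In the other pairs of groups with Torin1, same-numbered libraries correlated at 0.00973 to 0.322. Over all other pairs of groups, such correlations ran from -0.244 (replicate 2, 1 h fed with and 4 h fed without Torin1) to 0.388 (replicate 1, 1 h fed and starved without Torin1). Different-numbered libraries there reached 0.34 (1 h fed replicate 2 and starved replicate 3, without Torin1). Whether the numbers mark pairs is therefore open. The main fit, from which the calls and p-values are given, ignores pairing. A fit with the replicate block is an alternative, with 398 calls where the main fit had 296. Whether replicates came from separate cultures is not stated in the labels; p-values therefore reflect only the spread among these samples, possibly a technical one. Other alternatives were DESeq2 1.42.0, limma-voom, other scalings and filters, the compared groups alone, and leaving out each library.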

Additional observations from a re-analysis of the deposited data

Results flagged for a closer look

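For 31 of the 52 named genes called under Torin1, the 4 h feeding response with Torin1 differed from that without it in edgeR's interaction test. Over all genes tested, 25.8% were called in that test. The named genes were not a random draw, so the count is not a result about them. RELB, HIVEP1, GATA2, TMEM109 and AMOT were picked for a small interaction p, which fixed their calls here. The values are differences of log2 fold changes, with Torin1 minus without. Metallothioneins had the most negative ones, −3.98 for MT1X and −2.365 for MT2A, where both responses were rises. Of the genes lower under Torin1, TMEM109 had −1.60, AMOT −1.33, MYC −1.29, ESRRB −1.26, LRP2 −1.33, SLC1A3 −0.92, INSR −0.85, CCND1 −0.81, CCND2 −0.61 and SYBU −0.59, while STC2 had 0.51, TXNIP 0.62, LRP1 0.68, DLL1 0.88, MSMO1 0.91 and ARRDC4 1.19. Of the genes higher under Torin1, ID3 had 0.56, EMILIN2 0.77, HES1 0.85, SMAD7 0.85, VCL 0.90, CNN2 1.43, GATA2 1.55, SKIL 1.63, HIVEP1 1.65, KLF10 2.15, ETV5 2.36 and RELB 2.96. ETV4 had 4.48, a value that depends on the prior count because its starved libraries with Torin1 were nearly at 0. Starved levels with and without Torin1 differed for several of these genes, and the part of that in the interaction was not tested.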

How the results depend on the processing

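The 296 genes called at 4 h under Torin1 became 471 with DESeq2's Wald test, 640 with the compared groups alone, 1584 with those groups and the replicate block (chosen after seeing the data), 127 at an adjusted p under 0.01, and 134 to 189 without 1 library. With the replicate block in the fit of all libraries the count was 398, and DDIT4 and HMGCS1 were the only named genes it added. For 4 h against 1 h, 241 genes became 364 without a filter, 447 with DESeq2, 374 with the block, 725 with the compared groups alone and 99 to 204 without 1 library. For 1 h, 66 genes became 150 without a filter, 120 with DESeq2, 110 with the block, 208 with the compared groups alone and 22 to 45 without 1 library. The 157 calls shared with feeding without Torin1 became 250 with DESeq2, 288 with the compared groups alone and 76 to 152 without 1 library. The 58 isoform genes became 38 with the block and 36 to 57 without 1 library. Scaling by total counts moved the share of higher calls to 61.2% at 4 h against 1 h, from 39% by TMM, and to 44.3% at 1 h, from 68.2%. No alternative reversed a named gene that was called. The cause of these shifts was not tested. With 3 libraries a group at this depth, small changes and genes at a few CPM are near the limit of detection.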
